A study of Bos taurus with 15 samples.

Results

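The 16-cell bovine embryo was set against the 3 cleavage stages that come before it. Transcript levels in oocytes and in embryos of Bos taurus produced in vitro had been measured on 15 Affymetrix Bovine Genome arrays, each of which gives a linear intensity, called signal here, for every one of 24128 probe sets. Of these arrays, 4 are used in the comparison: 1 of 16-cell embryos and 1 each of 2-cell, 4-cell and 8-cell embryos, with no replicate of any of these stages. The oocyte, morula and blastocyst stages, with 3 arrays each, and the 1-cell stage, with 2, served to describe the spread between replicates and for a tested comparison of morulae with oocytes. All groups share 1 protocol in the labels: oocytes were aspirated from ovarian follicles, matured with LH, FSH and fetal calf serum, fertilised with live sperm, freed of cumulus cells by vortexing and cultured in SOF medium, with no other treatment. The labels give no strain, no age other than the stage, and no number of embryos per array.

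The early embryo lives on RNA and protein that the oocyte stored while it grew. Stored transcripts are destroyed during the first cleavages, and the genome of the embryo takes over; in cattle the main wave of its transcription falls between the 8-cell and the 16-cell stage. The embryo then builds ribosomes and mitochondrial enzymes of its own, compacts into a morula and sorts its cells into trophectoderm, the future placenta, and inner cell mass.

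A gene was called higher on the 16-cell array when its log2(signal + 16) lay at least 2 units, which is 4-fold, above the highest of the 2-, 4- and 8-cell arrays, and lower when it lay at least 2 units below the lowest of them. This excess is the distance beyond the range used below. Where earlier arrays are named, the 2-, 4- and 8-cell arrays are meant, without the oocyte and 1-cell arrays. With 1 array against 3 single arrays of successive stages there is no test and no p-value, and a difference of stage cannot be told apart from a difference between these preparations. Of 24016 probe sets, 1733 were higher (7.22%) and 583 lower (2.43%). At 1 probe set per gene, 838 of 9155 genes were higher (9.15%) and 262 lower (2.86%). The signal of 9966 probe sets (41.5%) fell inside the range of the 3 arrays.

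The differences were often large. Among the 838 higher genes the median distance was 3.00, the median signal was 1359 on the 16-cell array, and the median of the highest earlier signal was 93.84. In 289 of them no earlier array reached a signal of 50, whereas in 120 at least 1 earlier array was already at 500 or more. Among the 262 lower genes the median distance was -2.87, with a median signal of 78.75 against 1070 for the lowest earlier array. As a measure of error, the distance was compared with the widest range between replicate arrays that the same gene showed in any replicated stage: 636 of the higher genes (75.9%) and 175 of the lower ones (66.8%) lay beyond it. At the edge of the rule, GPRC5C lay just inside with a distance of 2.00 and AP1G1 just outside with 1.9993, and on the lower side HDGFL3 was inside with -2.01 and GSTA4 outside with -1.98.

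**Figure D1:**
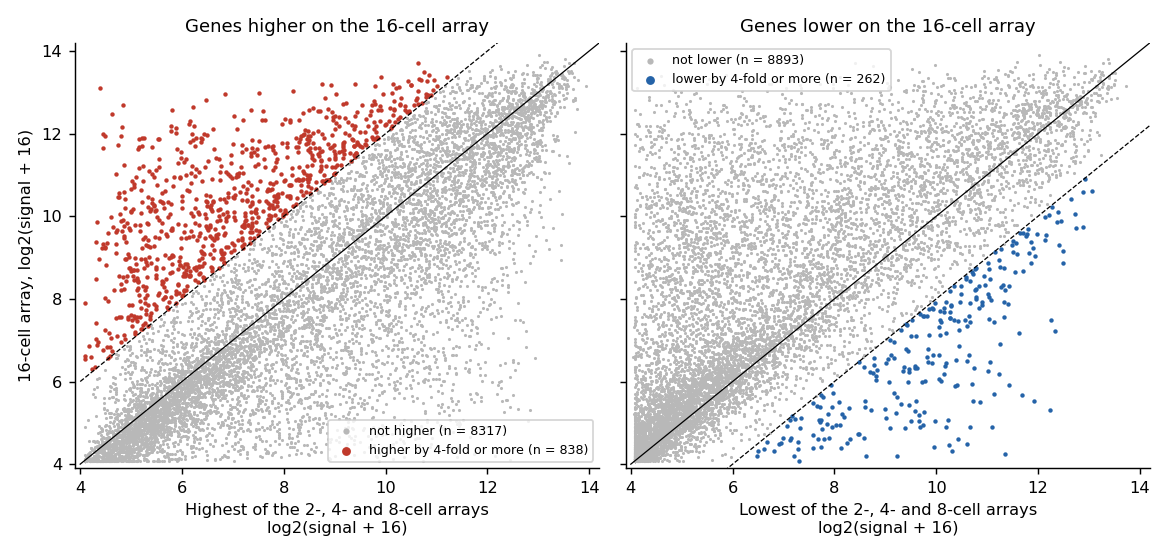
Each point is a gene at 1 probe set, plotted as log2(signal + 16) on the 16-cell array against the highest (left) or lowest (right) of the 2-, 4- and 8-cell arrays; the solid line marks equality and the dashed line a 4-fold difference. The 838 genes in red lie above the dashed line and the 262 in blue below it.

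Several facts about the arrays bear on these counts. Mean signal was 579.3, 594.7 and 553.0 on the 2-, 4- and 8-cell arrays and 712.9 on the 16-cell array, and bacterial labelling controls were present on all 4. The 16-cell array thus had the brightest mean of the 4, and other scalings lowered it against the rest. Under quantile normalization 608 genes were higher and 347 lower, so the higher share of all calls went from 76.2% to 63.7%, and under median centring 714 were higher and 304 lower. These scalings moved the median difference over all probe sets from 0.003 to -0.133 and -0.219, and differences smaller than that have no settled direction. The 8-cell array decided many lower calls: without it 479 genes were lower. Ratios of middle to 3' probe sets, which read the length of the amplified RNA, were 0.237, 0.0935, 0.0571 and 0.134 for GAPDH and 0.562, 0.0229, 0.0115 and 0.475 for cyclophilin in order of stage. For eIF-4E they were 0.157, 0.272, 0.233 and 0.0853, where the 16-cell array lay below the 3 others. The part of these ratios in the results was not tested. Among the defining oocyte markers, ZP2, a protein of the egg coat, and MOS, a kinase of meiotic arrest, had signals of at least 2836 on all 4 arrays. The other defining markers GDF9, BMP15 and ZP4, described below, were called lower, at 56.20, 449.6 and 1885 on the 16-cell array. ZP3 was not called. Of 360 called genes with more than 1 probe set, 46 had another probe set called the same way and 5 had one called the opposite way. Among genes described below as called, the second probe sets of ASH1L, APBB2, MEIS2, FANCL, RAD52, BMP15, SIRT1, NAT10, CPSF6, MED20, CNOT6L, HSPA14, IPO8 and VEGFA were not called.

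The gene farthest above the range was EWSR1, which encodes an RNA-binding protein of transcription and splicing. Its signal was 1.73, 1.32 and 5.08 on the 2-, 4- and 8-cell arrays and 8778 on the 16-cell array, a distance of 8.70. SLC38A2, a carrier of neutral amino acids, read 3.79, 4.99 and 6.55 and then 3931. Both genes were at or under 6.55 on the 2-, 4- and 8-cell arrays. The oocyte arrays were not all as low, at 1.24 to 380.8 for EWSR1 and 71.38 to 1358 for SLC38A2. On the 1-cell arrays EWSR1 read 45.83 and 84.45 and SLC38A2 4.9 and 5.08. The morula arrays were high, as the 16-cell array was, at 4457 to 6582 for EWSR1 and 6944 to 7963 for SLC38A2. A second SLC38A2 probe set stayed inside the range.

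NHLRC3, RAB14 and RANBP10 had the same shape. NHLRC3 read 8.15, 7.23 and 11.81 and then 3917, with 4024 to 4553 on the morula arrays. RAB14, a GTPase of traffic between endosomes and the Golgi, read 19.35, 22.96 and 40.17 and then 6036, and RANBP10, a Ran-binding protein, 9.67, 21.98 and 17.53 and then 3757. The 2 other RANBP10 probe sets did not follow. In all 5 genes named so far the 16-cell signal exceeded every earlier cleavage array by more than the widest range between replicates.

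Other genes among the 15 farthest above the range were high on the 16-cell array and much lower on later ones. PLOD2, which hydroxylates lysines of collagen, read 6.13, 2.11 and 8.79, then 5675, and 39.31 to 642.0 on the morula arrays. MAGED2 read 5.87, 1.00 and 2.16, then 4041, and 57.39 to 121.5 on the morula arrays. MAOA, the enzyme that oxidises serotonin and noradrenaline, read 8.16, 7.65 and 12.27, then 4558, and 10.52 to 231.5. FGF2, a growth factor, read 11.77, 19.45 and 18.59, then 3747, and 85.14 to 213.1. GJA1, the gap junction protein connexin 43, read 19.29, 15.86 and 11.63, then 3159, and 109.0 to 391.0. GEM, a small GTPase, read 6.79, 5.39 and 21.19, then 3296, and 2.99 to 12.82. For these 6 genes the 16-cell array stood above the 2-, 4- and 8-cell arrays and above the morula arrays. The oocyte arrays carried signal as well: GEM read 379.2 to 2175 there, FGF2 205.85 to 1411 and PLOD2 195.7 to 1247. GJA1 read 85.28 to 692.4 on them, MAGED2 23.67 to 500.3 and MAOA 22.0 to 159.6. The second probe sets of PLOD2, FGF2 and GJA1 had distances of 0.63, -1.66 and -0.83, so they did not repeat the call.

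RASSF1, ATOSB and ASH1L lay between these patterns. RASSF1, a Ras-association protein of growth control, read 10.94, 5.25 and 1.00 and then 3393, but its morula arrays ranged from 1.00 to 1813. ASH1L, a histone methyltransferase, read 5.08, 7.56 and 19.48 and then 3235, against 176.2 to 498.2 on the morula arrays. ATOSB read 20.88, 8.40 and 19.02 and then 3762, against 44.96 to 967.9. The replicate morula arrays of RASSF1 thus lay far apart, and a single 16-cell array gives no such spread.

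**Figure D2:**
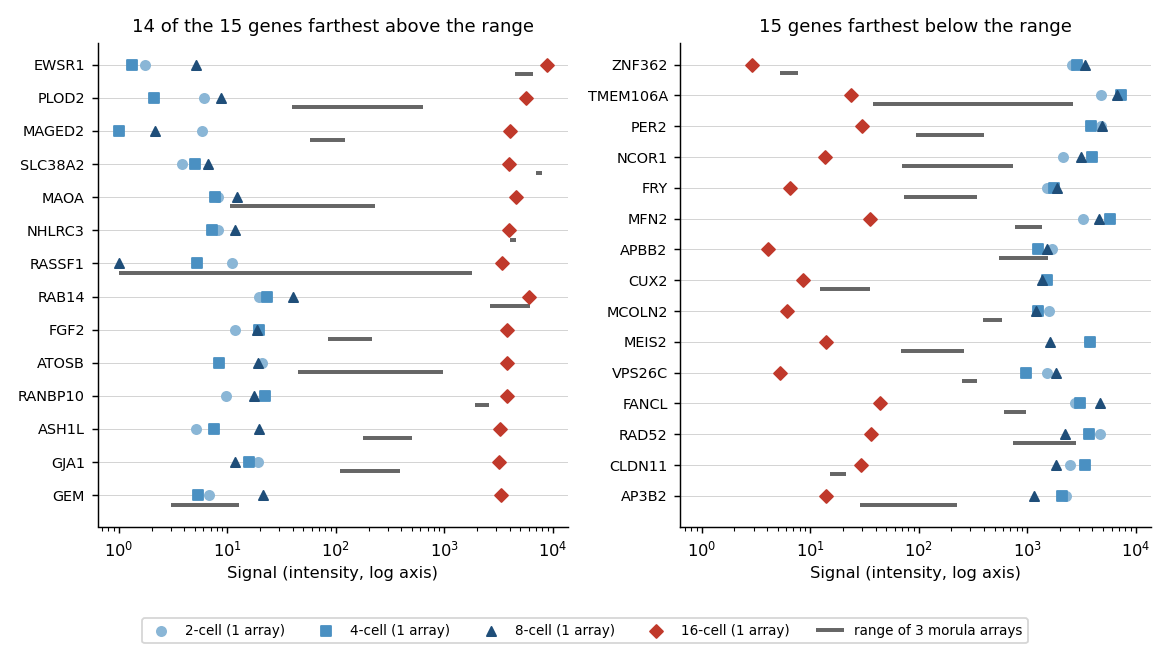
Signals (intensity, log axis) of 14 of the 15 genes farthest above and the 15 farthest below the range of the earlier cleavage arrays; symbols are the single arrays of each stage and grey bars the range of the 3 morula arrays. EWSR1, SLC38A2 and NHLRC3 have 16-cell signals near those of the morula arrays, whereas PLOD2, MAGED2, FGF2, GJA1 and GEM exceed all of them.

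Ribosomal protein genes had the highest called share of the lists. Of 68 cytoplasmic ribosomal protein genes measured, 30 (44.1%) were higher and 0 lower, against 9.15% and 2.86% of all genes, and 60 of the 68 lay above the range by any margin. Their median difference from the mean of the 3 earlier arrays was 2.52, beside 0.12 over all genes, and it was 2.30 and 2.32 under median centring and quantile normalization. RPL22, of the large subunit, had signals of 21.9, 99.67 and 82.04 and then 7926, a distance of 6.10. RPS26, of the small subunit, read 28.87, 335.8 and 412.2 and then 9425. RPL18 read 365.8, 194.5 and 223.6 and then 6294. The morula arrays of RPL22 lay at 10235 to 10869, those of RPS26 at 6973 to 11702 and those of RPL18 at 8480 to 10588, so the 16-cell signals of RPL22 and RPL18 were below all of them. RPL3 lay 4.04 beyond the range on 1 probe set and 0.33 on another. The summed signal of the list was 114728 to 129235 on the 3 earlier arrays, 495718 on the 16-cell array and 499658 to 593950 on the morula arrays. In 26 of the 30 called genes the distance exceeded the widest range between replicates.

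Ribosome biogenesis genes assemble these proteins with ribosomal RNA. Of 86 measured, 9 were higher (10.5%) and 2 lower (2.33%), near the shares of all genes, although their median difference was 1.03 and 60 of the 86 lay above the range. POLR1C, a subunit shared by RNA polymerases I and III, read 115.9, 9.01 and 471.2 and then 9226. EMG1, a methyltransferase of 18S rRNA, read 162.3, 161.2 and 56.18 and then 2826, and WDR74 read 119.5, 159.0 and 190.7 and then 3317. The distances were 4.25 for POLR1C, 3.99 for EMG1 and 4.01 for WDR74, all beyond the widest range between replicates, and MAK16 was nearer with 2.85. The export adapter NMD3 went the other way, from 6233, 8533 and 4514 to 998.1, as did the RNA acetyltransferase NAT10, from 4916, 6852 and 6625 to 1184. The count of higher members was 16 without the 4-cell array and 16 without the 8-cell array. Fibrillarin (FBL) and NOP2, of the nucleolus, were above the range by 1.86 and 0.61 and were not called.

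Of 49 translation factors 7 were higher (14.3%, beside 9.15% of all genes), with a median difference of 1.27. EIF2B2, of the exchange factor that recharges eIF2, read 287.7, 53.96 and 91.69 and then 3789. EIF3J read 622.8, 649.4 and 642.5, almost level, and then 4374. DENR, a factor of reinitiation, read 19.51 and 28.49 on the 2- and 4-cell arrays but 912.0 on the 8-cell array, before 6047. EIF3G read 233.6, 41.41 and 43.97 and then 1497. On these single arrays the factors differed at the 8-cell stage: EIF3J and EIF3G were near their 4-cell signal, whereas DENR was far above its own. EIF3J had not been low throughout, with 2526 and 2420 on the 1-cell arrays. The distances of EIF3J and DENR did not exceed the widest range between replicates. The second DENR probe set was called as well, with 4.24. EIF3A, with 13.81, 9.79, 1540 and 2496, lay only 0.69 above the range. EIF1AX, an early marker of genome activation in cattle, read 1232, 2442, 2190 and 8117 and missed the rule with 1.73.

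Aminoacyl-tRNA synthetases charge tRNAs with amino acids. Of 30 measured, 5 were higher (16.7%) and 1 lower (3.33%), beside 9.15% and 2.86% of all genes. Without the 4-cell array 8 were higher. AARS1, for alanine, read 16.0, 68.24 and 23.98 and then 3734, with 5805 to 6742 on the morula arrays. HARS1, for histidine, read 293.0, 289.8 and 41.64 and then 3271. The mitochondrial VARS2 read 84.74, 39.31 and 50.07 and then 817.3, while the scaffold protein AIMP1 read 20.69, 4.54 and 8.86 and then 203.7. The mitochondrial isoleucine enzyme IARS2 was lower, at 135.2 after 979.6, 809.0 and 614.6, and its morula arrays were at 1014 to 2191. Without the 8-cell array 4 synthetases were lower.

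**Figure D3:**
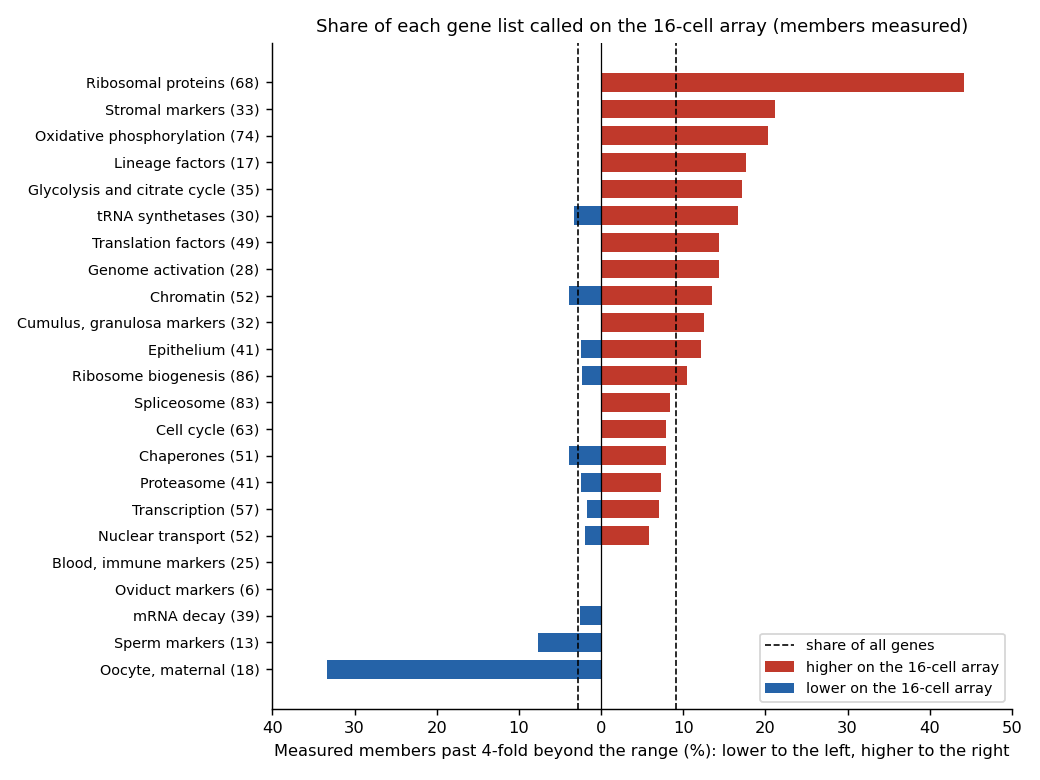
Share of the measured members of each gene list that lay at least 4-fold above (red, right) or below (blue, left) the range of the 2-, 4- and 8-cell arrays; dashed lines are the shares of all genes, 9.15% and 2.86%. Ribosomal proteins have the longest red bar, 44.1%, and the oocyte list the longest blue bar, 33.3%.

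Of 74 oxidative phosphorylation genes 15 were higher (20.3%) and 0 lower, beside 9.15% and 2.86% of all genes. Their median difference was 1.64, and 53 of the 74 lay above the range. The count of higher members was 24 without the 4-cell array and 10 under quantile normalization. COX4I1, of cytochrome c oxidase, read 272.7, 197.1 and 85.96 and then 8412. NDUFV1, of complex I, read 35.86, 261.0 and 36.82 and then 4928, and NDUFB11 14.08, 26.6 and 58.11 and then 1011. NDUFA3 read 72.52, 69.26 and 11.72 and then 979.6. The remaining 11 called members came from complex I (NDUFB2, NDUFB4, NDUFA4 and NDUFB10), complex III (CYC1, UQCR10 and UQCR11), complex IV (COX6A1) and the ATP synthase (ATP5PD, ATP5F1B and ATP5MF), at distances of 2.04 to 3.45. Thus each of complexes I, III, IV and V had called members. The summed signal of the list was 59612 to 98337 on the earlier arrays, 238946 on the 16-cell array and 305445 to 415062 on the morula arrays.

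Of 35 genes of glycolysis and the citrate cycle 6 were higher (17.1%) and 0 lower, beside 9.15% and 2.86% of all genes. Of the 6, 5 act where pyruvate enters the citrate cycle, within the cycle or late in glycolysis: IDH2 read 299.7, 55.08 and 39.45 and then 3541, PDHA1 76.89, 108.9 and 168.8 and then 1822, and IDH3A 25.33, 132.2 and 46.15 and then 878.6, beside PGK1 and PDHB. The 3 other PDHA1 probe sets and the other IDH3A probe set were not called. PFKP, the platelet form of phosphofructokinase, differed from these. It read 34.44, 37.41 and 38.53 and then 1056, and the 11 other arrays of the series ranged from 14.85 to 58.54.

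Genes for reading and processing the genome were called at about the background rate. Of 83 spliceosome genes 7 were higher (8.43%) and 0 lower, and 11 and 14 were higher without the 4-cell and the 8-cell array. Their median difference was nonetheless 0.98, beside 0.12 over all genes, and 54 of the 83 lay above the range and 12 below it. CPSF6, of the cleavage factor that sets poly(A) sites, read 25.28, 1238 and 928.9 and then 7460, and the exon junction protein RBM8A 76.5, 576.4 and 645.8 and then 3317. SF3B5, of the U2 particle, read 70.78, 227.1 and 554.3 and then 3486, and PRPF38A 3.72, 5.56 and 29.12 and then 348.5. In these 4 genes the 2-cell array was the lowest. Of 57 general transcription genes 4 were higher (7.02%), 9 without the 8-cell array, and 1 was lower. The Mediator subunit MED9 was flat at 15.47, 12.06 and 16.16 and then at 1111, whereas TAF11, of the TFIID complex, was at 190.1, 20.43 and 763.1 before 5236. POLR2L, a small subunit shared by the RNA polymerases, read 227.5, 640.0 and 82.12 and then 3689, and MED28 3.24, 13.31 and 22.7 and then 223.3. Another Mediator subunit, MED20, was lower, from 2378, 1118 and 989.4 to 223.7. POLR2A, the large subunit of RNA polymerase II, was above the range by 0.99 and was not called.

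Of 28 genes listed for genome activation 4 were higher (14.3%) and 0 lower, beside 9.15% and 2.86% of all genes. Their median difference was 1.36. Without the 8-cell array the count of higher members was 9, and it was 1 under quantile normalization. NFYA, of the CCAAT-binding factor, read 7.26, 9.81 and 251.8 and then 1431, so it had left its low level by the 8-cell array. SIRT1, a deacetylase, read 255.9, 488.5 and 1089 and then 4460. Its oocyte arrays were already at 1727 to 2046. Its morula arrays lay at 3478 to 5591 and its blastocyst arrays at 2683 to 7284, so the 16-cell signal was inside both ranges. SUV39H1, a methyltransferase of histone H3, read 15.11, 149.1 and 132.0 and then 903.8. The distances of NFYA and SUV39H1 did not exceed the widest range between replicates. The helicase gene DDX39A was already at 3376 on the 8-cell array, after 104.5 and 442.4, and lay only 0.53 above the range at 4881.

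Of 52 chromatin genes 7 were higher (13.5%) and 2 lower (3.85%), near the 9.15% and 2.86% of all genes. The histone variant gene H2AZ1 read 42.79, 43.43 and 1830 and then 10902. The heterochromatin protein gene CBX3 read 278.4, 19.45 and 366.7 and then 4093. KAT2B, an acetyltransferase, read 47.21, 77.64 and 35.11 and then 723.0, and KDM3A, a demethylase, 60.5, 134.2 and 72.03 and then 934.6. These 4 lay beyond the widest range between replicates, but the 3 other KAT2B probe sets and the other KDM3A probe set were inside the range of the earlier arrays. SMARCA2, an ATPase of the BAF remodelling complex, went from 2547, 4565 and 3063 to 174.2. EED, of Polycomb complex 2, read 7609, 5241 and 3911 and then 505.8, but its 22 other probe sets had distances of -3.67 to 3.47, and the mean of all its probe sets gave 0.07. XIST, the RNA that silences an X chromosome in females, was picked out after its values were seen. It read 10.57, 26.21 and 32.67 and then 1286, with 275.3 to 943.6 on the morula arrays, and the distances of its other 5 probe sets were 0.00 to -0.07.

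Of 17 lineage factors 3 were higher (17.6%, beside 9.15% of all genes): KLF5, GATA6 and TEAD4. GATA6, a factor of primitive endoderm, read 9.85, 14.03 and 393.7 and then 5941, with 8895 to 10886 on the morula arrays. TEAD4, the partner of YAP in trophectoderm, read 78.81, 59.89 and 17.57 and then 1144. KLF5 read 33.89, 96.09 and 181.9 and then 5128, and its second probe set stayed inside the range. On the oocyte arrays KLF5 read 542.8 to 3056. All 3 were higher in morulae than in oocytes as well, with adjusted p-values from limma of 0.000256 for GATA6, 0.000235 for TEAD4 and 0.0397 for KLF5. Other regulators had reached their level earlier: KLF4 read 992.1, 2209 and 8551 and then 12885, 0.59 above the range, and POU5F1, a pluripotency factor, 3384, 5043, 6687 and 6200, inside it. Without the 8-cell array 7 lineage factors were higher.

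Of 41 epithelial genes 5 were higher (12.2%) and 1 lower (2.44%), near the 9.15% and 2.86% of all genes, and the median difference was 0.04, beside 0.12 over all genes; both turn negative, to -0.16 and -0.09, under quantile normalization. F11R, a tight junction adhesion molecule, read 1236, 149.4 and 1101 and then 6688, and a second probe set had a distance of 4.20. AQP11, a water channel, read 84.99, 90.72 and 23.22 and then 2133. The desmosomal cadherin DSC2 read 9.72, 17.88 and 77.24 and then 840.0, and its blastocyst arrays lay at 1182 to 4151. Of the keratins, KRT18 read 8.75 against 1565 to 5008 on the morula arrays, KRT8 read 40.54, inside its range, and KRT19 was called lower, at 13.84 after 846.6, 257.4 and 233.3. CDH1, the cadherin of compaction, read 266.1, inside its earlier range of 77.64 to 1148.

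Cell cycle genes were called at 7.94%, 5 of 63, all higher, near the 9.15% of all genes. Without the 4-cell array 8 were higher, and without the 8-cell array 9. The cyclin genes CCND2 and CCND3 and their kinase CDK4 act in G1. CCND2 read 29.27, 28.78 and 54.7 and then 708.5, CDK4 60.31, 184.8 and 113.3 and then 1298, and CCND3 32.4, 147.0 and 38.51 and then 825.8. RB1, the brake on the same step, read 372.4, 555.7 and 13.15 and then 2726. Its morula arrays were at 2.21 to 41.03, and it was lower in morulae than in oocytes (limma, adjusted p = 0.000102), whereas CCND2, CDK4, CCND3 and the kinase gene CDK1, the other member called, were higher there (adjusted p of 0.0201 at most).

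Of 41 proteasome genes 3 were higher (7.32%, near the 9.15% of all genes), 6 without the 4-cell array, and 1 was lower. PSMA1 read 5.28, 2.12 and 39.85 and then 827.0, PSMB4 40.31, 449.8 and 89.66 and then 6198, and PSMB6 52.71, 866.2 and 17.95 and then 6763. These 3 encode subunits of the catalytic core. PSMD5, an assembly chaperone of the regulatory particle, was the lower one, from 3594, 2557 and 3025 to 410.3. Of 51 chaperone genes 4 were higher (7.84%) and 2 lower (3.92%), near the 9.15% and 2.86% of all genes. CCT6A, of the ring that folds actin and tubulin, read 13.19, 9.26 and 6.99 and then 1513, and DNAJB9, of the endoplasmic reticulum, 16.9, 16.41 and 820.0 and then 5929. HSPA14 and HSPA1A were lower, HSPA1A at 672.1 after 9013, 7758 and 4474. Of its 5 other probe sets 3 lay above the range by 1.20 to 1.51, and the mean of all its probe sets lay 0.42 above it.

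Importins carry proteins into the nucleus. Of 52 nuclear transport genes 3 were higher (5.77%, beside 9.15% of all genes), 7 without the 2-cell array, and 1 was lower. IPO8 read 11.46, 3.74 and 9.06 and then 1054, and IPO7 65.59, 48.43 and 37.76 and then 752.2. The lower member was the oocyte importin KPNA7, described with the maternal genes below. Of 39 mRNA decay genes 0 were higher and 1, the deadenylase CNOT6L, was lower; without the 8-cell array 6 were higher.

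Genes of nutrient supply and of the cell surface that no list held were picked out after their values were seen. VEGFA, the vascular growth factor, read 10.92, 7.15 and 12.77 and then 944.5, with 128.8 to 1152 on the morula arrays. SLC7A5, a carrier of large amino acids, read 161.9, 105.0 and 204.4 and then 3102. CD99, an adhesion protein, read 2.77, 4.63 and 5.78 and then 628.9, and its second probe set had a distance of 4.60.

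A group of genes was higher on the 16-cell array than on the cleavage arrays before it and on all later arrays. Of the 838 higher genes 118 (14.1%) were also at least 4-fold above all 6 morula and blastocyst arrays, against 347 (3.79%) of all genes, a comparison that uses the same 16-cell array for both sides. In 75 of them the 16-cell array was at least 4-fold above all 14 other arrays. Genes of this group that are named here beyond the lists were chosen after their values were seen. SFRP2, a secreted modulator of Wnt signals, read 4.45, 72.33 and 6.74, then 7176, and 3.64 to 22.25 on the morula arrays. XCL1, a chemokine, read 70.07, 40.59 and 54.4, then 4031, and 8.92 to 70.35. GUCY2C, a receptor guanylate cyclase, read 26.47, 19.89 and 26.79, then 2059, and 22.87 to 41.51. CYP1A1, an enzyme of xenobiotic metabolism, read 6.71, 18.15 and 40.45, then 1683, and 20.93 to 64.5. In each of these genes the other 14 arrays stayed far under the 16-cell signal. With no second 16-cell array, whether other 16-cell embryos have these transcripts was not tested.

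Markers of stromal cells were among them. Of 33 measured stromal and fibroblast markers 7 were higher (21.2%) and 0 lower, beside 9.15% and 2.86% of all genes, and their summed signal was 2002 to 2693 on the earlier arrays, 15095 on the 16-cell array and 13089 to 14712 on the morula arrays. LUM, a proteoglycan of collagen fibrils, read 7.90, 10.89 and 4.92 and then 1397. VIM, the filament protein of mesenchymal cells, read 27.86, 7.61 and 10.04 and then 1959. COL1A2 read 162.9, 62.59 and 76.59 and then 2432, and IGFBP7 165.5, 181.6 and 155.3 and then 3273. These 4 were at least 4-fold above every other array. The other COL1A2 probe set read 8.67, 1.46 and 40.22 and then 5.93, inside its range. TIMP1, an inhibitor of matrix proteases, and SPARC, a matrix glycoprotein, were higher too, at 2074 and 666.8, and rose from oocytes to morulae by limma (adjusted p of 0.00376 and 0.018). Of the 33 markers, 11 exceeded a signal of 200 on a morula or blastocyst array. Of the 6 defining stromal markers, LUM and COL1A2 were thus called, whereas COL1A1 at 8.43, COL3A1 at 25.92, DCN at 80.06 and PDGFRA at 106.4 were not. The part of stromal cells in the 16-cell result was not tested.

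Cumulus and granulosa cells surround the oocyte, and the labels say they were removed after fertilisation. Of 32 measured markers 4 were higher (12.5%, near the 9.15% of all genes) and 0 lower: GJA1, FST, TIMP1 and HSD3B1. FST, the antagonist of activin, read 30.54, 18.38 and 20.2 and then 945.1, and HSD3B1, a steroid enzyme that the trophectoderm also uses, 31.27, 31.81 and 19.35 and then 780.0, with 1458 to 3867 on the blastocyst arrays. The defining markers FSHR, at 1.44, CYP19A1, at 24.96, PTX3, at 12.25, TNFAIP6, at 12.93, and AMH, at 27.96, were inside or below their earlier ranges; TNFAIP6 had read 640.6 on the 8-cell array. INHBA, at 313.8, and the hyaluronan synthase HAS2, at 4710, lay 0.11 and 1.11 above their ranges, and HAS2 had been at 2179 and 2003 on the 4- and 8-cell arrays. Another HAS2 probe set went the opposite way, from 3718, 2147 and 4549 to 104.4. The summed signal of the list was 7149, 12618, 15434 and 18380 in order of stage, and 17876 to 19508 on the morula arrays. The part of these cells in the 16-cell result was not tested. Of 25 blood and immune markers 0 were called, of 13 sperm markers 1, the testis lactate dehydrogenase LDHC, was lower, and of 6 oviduct markers 0 were called.

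Interferon-stimulated genes formed a list drawn up after the values were seen, so that its count describes only. Of 40 measured, 9 were higher (22.5%) and 1 lower (2.5%), beside 9.15% and 2.86% of all genes. ISG15, a ubiquitin-like modifier, read 15.87, 12.47 and 24.68, then 2182, and 17.05 to 24.48 on the morula arrays. MX1, an antiviral GTPase, read 9.41, 5.81 and 11.02, then 1399, and 3.19 to 6.29. IFI6 read 4.11, 1.49 and 1.00, then 914.6, and 1.00 to 65.72. The oocyte arrays carried some of this signal: ISG15 lay at 156.1 to 1517 and MX1 at 214.2 to 327.1 there, above the 3 cleavage arrays, while IFI6 lay at 2.17 to 21.03. IRF3, a transcription factor of the pathway, read 66.7, 80.05 and 337.6 and then 3502 and stayed at 575.0 to 1665 on the morula arrays. EPSTI1 was the lower one, from 2568, 2725 and 3862 to 228.0.

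**Figure D4:**
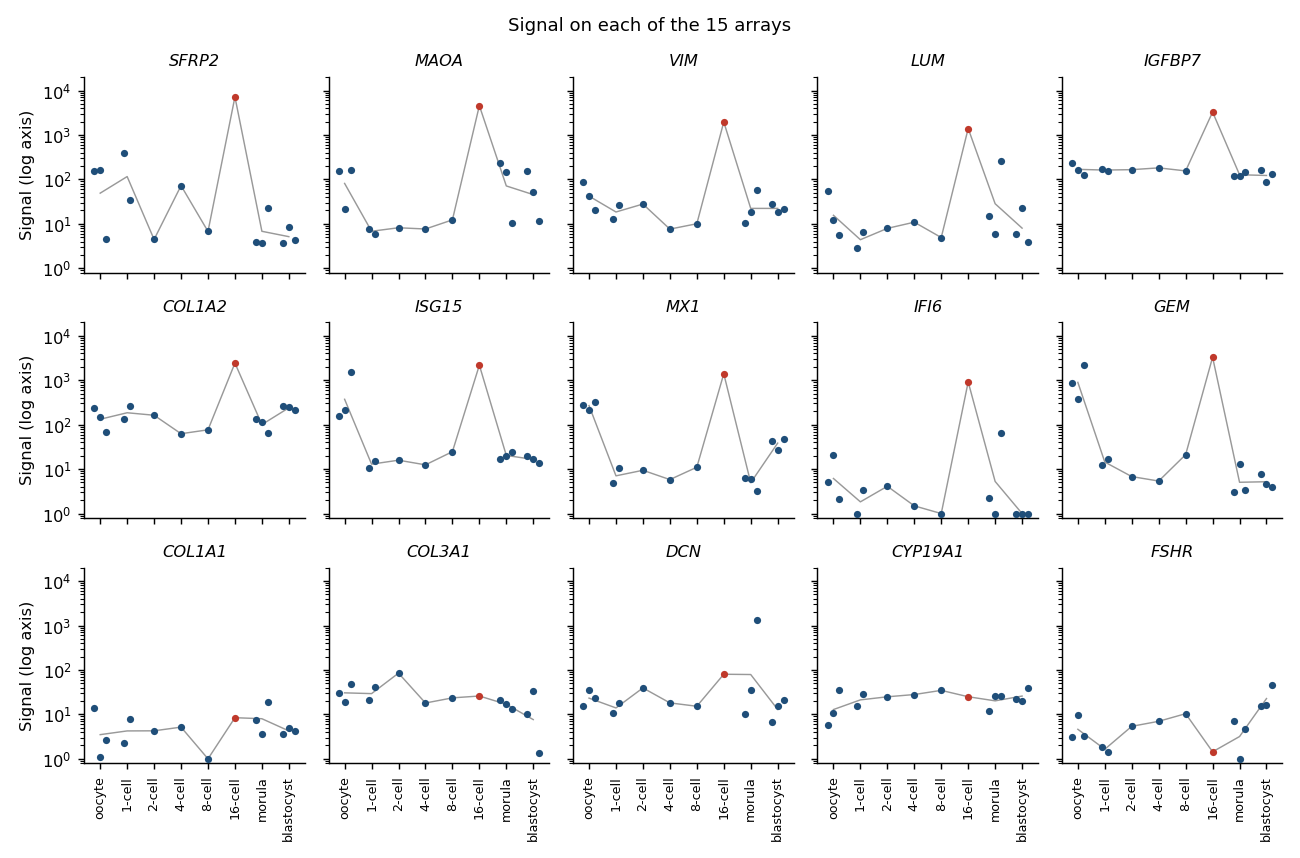
Signal (log axis) of 15 genes on each of the 15 arrays by stage; points are arrays, the 16-cell array is red, and the grey line joins the geometric mean of each stage. SFRP2, MAOA, VIM, LUM, IGFBP7, COL1A2, ISG15, MX1, IFI6 and GEM peak on the 16-cell array, whereas COL1A1, COL3A1, DCN, CYP19A1 and FSHR are no higher than 80.06 there.

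The genes farthest below the range were well-read transcripts of the cleavage stages. ZNF362, a zinc finger gene, had signals of 2602, 2886 and 3400 on the 2-, 4- and 8-cell arrays and 2.89 on the 16-cell array, a distance of -7.12. Its morula arrays lay at 5.22 to 7.63. CUX2, a homeobox gene, read 1504, 1514 and 1369 and then 8.50, and CLDN11, a claudin, 2487, 3414 and 1834 and then 29.44, with 12.4 to 35.62 and 15.16 to 21.28 on the morula arrays. On the blastocyst arrays CUX2 read 6.66 to 12 and CLDN11 9.72 to 39.99, near their 16-cell signals, whereas ZNF362 read 29.35 to 201.6, above its own. The second probe set of CLDN11 had a distance of 0.64.

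In other genes the 16-cell signal lay under the later arrays. MFN2, which fuses mitochondrial outer membranes, read 3269, 5785 and 4590, then 35.46, and 770.5 to 1363 on the morula arrays. RAD52, a recombination protein, read 4648, 3706 and 2238, then 36.14, and 746.9 to 2831. VPS26C, a cargo adapter, read 1509, 975.8 and 1848, then 5.29, and 248.3 to 342.2, and MCOLN2, a lysosomal channel, 1586, 1250 and 1197, then 6.05, and 391.4 to 580.2. FANCL, the ubiquitin ligase of the Fanconi pathway, read 2743, 3047 and 4736, then 44.42, and 611.3 to 968.8. In all, 33 of the 262 lower genes (12.6%) were also at least 4-fold below all 6 morula and blastocyst arrays, against 209 (2.28%) of all genes, again with the 16-cell array on both sides. A single array gives no error for such a dip. OPA1, which fuses the inner mitochondrial membrane, and SOD2, the mitochondrial superoxide dismutase, were picked out after their values were seen: OPA1 read 3599, 3590 and 1425 and then 300.1, and SOD2 5484, 4910 and 3785 and then 584.0, with 4670 to 6891 on the morula arrays.

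The clock gene PER2 read 4762, 3883 and 4946 and then 30.01, a distance of -6.41, and a second probe set had one of -1.19. CRY1, its partner in the repressor complex and picked out afterwards, read 2670, 3768 and 2474 and then 295.7. Both were lower in morulae than in oocytes, PER2 by -4.60 (SE 0.62, limma, adjusted p = 0.000706) and CRY1 by -4.28 (SE 0.60, adjusted p = 0.000876). FRY, NCOR1, APBB2, MEIS2, TMEM106A and AP3B2 completed the 15. NCOR1, a corepressor of nuclear receptors, read 2159, 3987 and 3107 and then 13.63, but its 4 other probe sets had distances of 0.00 to -1.06. MEIS2, a homeobox gene, read 3750, 3762 and 1608 and then 13.99. TMEM106A read 4825, 7300 and 6737 and then 23.61, with 38.21 to 2622 on the morula arrays. FRY, APBB2 and AP3B2 were at 6.50, 4.04 and 14.04 after signals of at least 1146 on the 2-, 4- and 8-cell arrays. AP3B2 had been lower before cleavage, at 48.84 to 181.9 on the oocyte arrays.

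Maternal transcripts were lower on the whole, but unevenly. Of 18 measured genes of the oocyte list 6 were lower (33.3%) and 0 higher, against 2.86% and 9.15% of all genes, and 13 of the 18 lay below the range. Their median difference was -1.48. GDF9 and BMP15, growth factors the oocyte secretes, had distances of -3.98 and -2.99. BMP15 read 3681, 5838 and 5556 and then 449.6, with 119.9 to 179.9 on the morula arrays. Its oocyte arrays read 422.8 to 4779, so the 16-cell signal lay inside their range. In 3 of the 6 called genes the distance exceeded the widest range between replicates, but not in BMP15 or NLRP5. NLRP5, of the subcortical maternal complex, read 8281, 8012 and 5356 and then 1092. KPNA7 read 7766, 6393 and 9519 and then 1350, with 32.88 to 48.03 on the morula arrays. ZP4, of the egg coat, read 8448, 8276 and 7709 and then 1885. All 6, with CNOT6L, were lower in morulae than in oocytes (limma, adjusted p of 0.0285 for BMP15 at most). At the 16-cell stage GDF9 was at 56.20, and the other 5 were still read at 183.4 to 1885. ZP2, at 2836 after 9661 to 10801, and MOS, at 3220 after 5179 to 6811, lay below the range by less than the rule asks. DNMT1, the maintenance methyltransferase, read 476.2, 330.7, 144.3 and 66.11, with a distance of -0.96.

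The replicated arrays gave a test for the same genes on other arrays. The probe set of each gene was chosen by its mean over all 15 arrays, so the choice was not independent of either comparison. Morulae were compared with oocytes on 3 arrays each, none of which enters the 16-cell comparison, with limma and Benjamini-Hochberg adjustment at 0.05. Labelling controls were near background on oocyte replicate 1 and morula replicates 1 and 2 and present on the others. The labelling-control class was thus split unevenly between the stages. In that test 1619 of 9155 genes were higher in morulae (17.7%) and 790 lower (8.63%). Of the 838 genes higher on the 16-cell array 472 (56.3%, and 29.2% of the 1619) were higher in morulae, 15 (1.79%) were lower and 351 did not pass, with a median difference of 2.51 against 0.139 for all genes. Of the 262 lower genes 116 (44.3%, and 14.7% of the 790) were lower in morulae, 5 (1.91%) were higher and 141 did not pass, with a median of -1.87. Over probe sets the test called 2830 higher (11.8%) and 1720 lower (7.16%), and the split was 2430 and 2301 under quantile normalization. Without the arrays numbered 3, an alternative added later, the test called 4336 and 2766 probe sets.

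Ribosomal and mitochondrial genes had the highest shares of higher calls among the lists in the replicated test. Of the 30 ribosomal protein genes called on the 16-cell array 28 were higher in morulae, and of all 68 measured 48 were. RPL22 differed by 3.18 (SE 0.48, limma, adjusted p = 0.00135). Of the 15 oxidative phosphorylation genes called, 14 were higher in morulae, and of all 74 measured 53 were. COX4I1 differed by 3.68 (SE 0.51, limma, adjusted p = 0.00085). EWSR1, at 6.16 (SE 0.90, adjusted p = 0.0011), AARS1, at 6.97 (SE 0.40, adjusted p = 1.3e-05), and POLR1C, at 7.11 (SE 0.78, adjusted p = 0.000234), were higher in morulae by limma too. ZNF362, at -4.76 (SE 0.63, adjusted p = 0.000639), and CLDN11, at -6.51 (SE 0.44, adjusted p = 2.5e-05), were lower. MFN2 did not pass, at -1.05 (SE 0.40, adjusted p = 0.103), and passed with the replicate number as a block (adjusted p = 0.048).

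**Figure D5:**
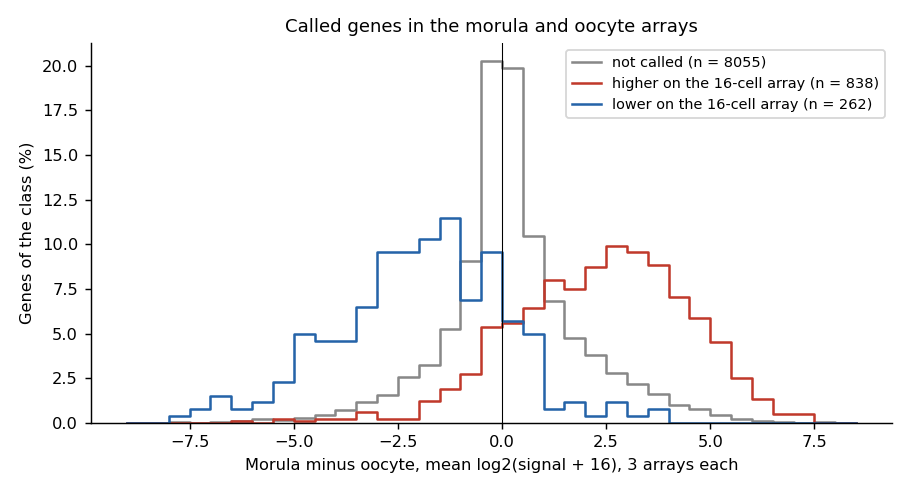
Distribution of the morula minus oocyte difference (mean log2(signal + 16), 3 arrays each) for genes higher, lower or not called on the 16-cell array, as a percentage of each class. Genes higher on the 16-cell array centre at 2.51 and lower ones at -1.87, against 0.139 over all genes.

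The 15 genes that were higher on the 16-cell array and lower in morulae than in oocytes were MX1, RB1, FHL1, GEM, NT5E, SMARCA1, G0S2, TDRD6, ISG15, HTRA1, MTR, TMEM176B, CDH2, TRAPPC6B and FAM171B, named after their values were seen. CDH2 passed with an adjusted p of 0.0389 by limma but not with the replicate block (adjusted p = 0.0526). SMARCA1, a chromatin remodelling ATPase, read 472.2 to 2228 on the oocyte arrays, 48.61, 81.71 and 67.63 on the 2-, 4- and 8-cell arrays, 4383 on the 16-cell array and 27.97 to 35.68 on the morula arrays. NT5E, the surface enzyme that makes adenosine, read 1412 to 3227, then 138.2, 1136 and 60.27, then 7005, and then 56.32 to 108.9. HTRA1, a secreted protease, read 329.3 to 1677, then 125.8, 137.8 and 149.3, then 3211, and then 54.7 to 118.9. These 3 genes were read in oocytes and at 16 cells and had low signals on the morula arrays. Their 1-cell arrays read 170.8 and 1817 for SMARCA1, 2330 and 451.2 for NT5E, and 267.6 and 178.5 for HTRA1. NT5E was also at 1136 on the 4-cell array, so the arrays between were not all low. Without the arrays numbered 3, 29 genes had these opposite calls.

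The 5 genes lower on the 16-cell array and higher in morulae were TMEM214, TMEM184B, EXOC2, TBL1X and GCDH, also named after their values were seen. TBL1X, a partner of NCOR1 in corepressor complexes, read 1148, 2176 and 557.2, then 36.46, and 1256 to 2489 on the morula arrays. EXOC2, of the exocyst, read 5471, 3370 and 2908, then 661.0, and 2626 to 4592. In both, the 16-cell array was under the arrays of the stages before and after it. Without the arrays numbered 3 there were 12 such genes.

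Some genes often followed at this stage did not move past the rule. UHRF1, a partner of DNMT1, read 10880, 7575, 9515 and 8261, inside its range (another probe set lay 0.90 below its own), and fell from oocytes to morulae (limma, adjusted p = 0.00238), where it read 199.0 to 671.2. HSPA8, the constitutive HSP70, read 4913, 4132 and 3778 and then 9252, and the histone gene H3-3B 2234, 3157 and 5606 and then 10199, 0.91 and 0.86 above their ranges. ACTB, at 8377 after 5311, 6894 and 8648, and GAPDH, at 779.1 after 868.7, 377.6 and 274.6, lay inside. SOX2, a pluripotency factor, read 1.00, 139.2 and 113.7 and then 325.2, 1.14 above. These values show the size of difference that the rule leaves out.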

How the data were processed

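The deposited table gives a linear intensity per probe set and array; per the labels' protocols, RNA was amplified in 3 rounds and labelled with biotin. How probes were summarised and arrays scaled is not given in the sources used here, and no detection call was used. Signals were used as deposited, as log2(signal + 16), which understates changes of low signals. After 112 control probe sets were left out, 13292 of 24016 probe sets had 1 gene symbol, 86 several and 10638 none; 13263 matched RefSeq genes (assembly ARS-UCD2.0). Each gene was read from the probe set with the highest mean over all 15 arrays, those of both comparisons included. Signals of different genes are not compared.

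Members, gene lists and rules were chosen with earlier results of these data known. Named genes were the 15 farthest beyond the range in each direction without LOC symbols, up to 4 called members per list and direction (or the 2 highest members), fixed genes and defining markers; others are marked as chosen after their values were seen. Of the first set, 1 gene is not reported here. A planned count of promoter motifs was not run, since promoter sequences were not used here.

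The tested comparison was limma 3.58.1 (R 4.3.3): a mean per stage on all 15 arrays, variance trend, Benjamini-Hochberg adjustment over all probe sets. The labels call the replicates biological, and a p-value here reads only how far these arrays spread. Same-numbered oocyte and morula arrays deviated together, weakly, from their stage means (correlations 0.142, 0.107 and 0.182), so the fit blocked on that number was treated as paired. The sample titles number the replicates within a stage and name no link between stages. Both procedures were tested on simulated data. Figures used matplotlib 3.10.9 in Python 3.11.15. The number of arrays limits the precision.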

Additional observations from a re-analysis of the deposited data

How the results depend on the processing

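Of 80 counts over all probe sets or genes, 63 stayed within 1.5 times the value reported, and 17 did not. At 2-fold beyond the range 3214 probe sets and 1616 genes were higher and 1312 and 581 lower; at 8-fold the counts were 936 and 418 higher and 272 and 116 lower. Against the 8-cell array alone they were 3281 and 1732 higher and 1386 and 552 lower. Probe sets lower by more than the widest replicate range as well numbered 385. Without each earlier array in turn, which can only widen a distance, 2053 to 2253 probe sets and 1018 to 1096 genes were higher, and 715 to 1059 and 315 to 479 lower, the most without the 8-cell array. Every gene called stayed called there. Averaging every probe set of a gene kept 79.0% of higher and 70.2% of lower genes and turned EED to 0.073 and HSPA1A to 0.424. Of 598 list counts 143 moved by over 1.5 times, and of 2276 values of named genes 263 moved by at least 1 SD.

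For morulae against oocytes, blocking on the replicate number (paired fit, replicate block) called 3410 probe sets higher and 2103 lower, and leaving out each replicate gave 2081 to 3129 and 1179 to 2123. Leaving out all arrays numbered 3 gave 4336 and 2766, a setting added once the data had been seen; the cause was not tested. The labelling-control class as a block, also added, gave 3014 and 2045. Signals below the added 16 limit what can be read as a difference.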
